A study of Mus musculus with 12 samples.

Results

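The proteasome genes described here are the 41 genes, of 30063 named on the array, whose probe set carries a single gene symbol made of Psma, Psmb, Psmc, Psmd or Psme and a number. The rule itself refers to no measured value, and each gene had 1 probe set. They comprised 4 members of the immunoproteasome, 30 constitutive subunits and 7 other members. The immunoproteasome members were the catalytic subunits Psmb8, Psmb9 and Psmb10 and the activator subunit Psme1. The constitutive subunits were 7 of the alpha ring, 6 of the beta ring, 6 ATPases of the base and 11 further parts of the regulatory particle. The other members were 3 chaperones of the regulatory particle (Psmd5, Psmd9 and Psmd10), the activators Psme3 and Psme4, and the testis and thymus subunits Psma8 and Psmb11. Psmb5, the constitutive catalytic subunit whose place Psmb8 takes, lay only on a probe set shared with Mir686, and Psme2, the partner of Psme1, only on probe sets shared with Psme2b. No value is given for these 2 genes.

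The glands of male C57BL/6 mice were collected at week 10 of age, and seminal vesicle RNA was measured in 4 groups of 3 arrays. The mice were wild type in the groups WT_vehicle and WT_DES and estrogen receptor-alpha knockouts in the groups aERKO_vehicle and aERKO_DES. Pups of both DES groups received subcutaneous diethylstilbestrol (DES), a synthetic estrogen, at 2 µg per pup per day from day 1 to day 5 after birth, and pups of both vehicle groups received the same volume of corn oil, in which the DES had been dissolved. How the knockout allele was made is not given in the sources used here. Whether the samples within a group were different mice is not stated in the labels, so each p-value below reflects sample-to-sample spread that could be technical. The comparisons ask how exposure to DES at birth was reflected in the adult gland, and whether the response differed without estrogen receptor alpha.

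Values are log2 expression, on which a difference of 1 is a doubling. A gene entered the tests if, on 3 or more of the 12 arrays, it was brighter than the middle value of that array's probe sets. This kept 20102 genes and 39 of the 41 members. Psma8, which replaces an alpha ring subunit in male germ cells, lay between 5.16 and 5.74 and was above the median on 0 arrays. Psmb11, the catalytic subunit of thymic cortical epithelium, lay between 5.55 and 6.21 and was above the median on 2 arrays. Neither was tested. A gene is said to rise, fall or change where limma's Benjamini-Hochberg adjusted p over the genes tested was below 0.05.

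Esr1, the targeted gene, was lower on each of the 6 aERKO arrays than on any WT array, by 0.76 on the log2 scale without DES (SE 0.08, limma adjusted p = 0.00587). The 8 markers of the gland's secretory epithelium had array means of 13.3 to 13.9 in all 4 groups. Arrays of a group correlated with one another at 0.982 to 0.996 over the genes tested. After DES in WT, 43.9% of all genes tested changed, 20.7% upwards and 23.3% downwards, and the median difference over all genes was -0.05. With the arrays brought to the same median, 3404 genes rose and 7115 fell, against 4152 and 4677 as deposited. The hybridization controls, added RNA that should read alike on every array, were lower by 0.357 in WT_DES than in WT_vehicle. With the arrays shifted to these controls, 8345 genes rose and 350 fell, and the median of all genes became 0.31.

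The proteasome is the protease that degrades proteins tagged with ubiquitin. Its core particle is a barrel of outer alpha rings, which gate the entry, and inner beta rings, which hold the catalytic sites. The regulatory particle caps the barrel: its base of ATPases unfolds the substrate, and its other subunits bind ubiquitin chains and remove them. Interferon gamma makes cells build the immunoproteasome, in which Psmb9, Psmb10 and Psmb8 take the places of the constitutive catalytic subunits Psmb6, Psmb7 and Psmb5, and leukocytes express it constantly. It trims peptides for presentation on class I molecules, and Psme1 and Psme2 together form an activator ring that opens the same barrel.

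Sequences upstream of the members were taken from the RefSeq promoter table of build GRCm38.p6, which runs from 250 bases before to 50 bases after the annotated start and held 34 of the 41 members. The windows of the 4 immunoproteasome members, which rose most among the members after DES in WT, and that of Psmb6, the constitutive partner of Psmb9, are shown 5′ to 3′ on the strand of the gene. Capitals mark matches to 3 motifs searched on both strands: the interferon-stimulated response core GAAANNGAAA, the gamma-activated site TTCNNNGAA and the antioxidant response core TGACNNNGC.
Psmb8, chr17:34197945-34198244, plus strand: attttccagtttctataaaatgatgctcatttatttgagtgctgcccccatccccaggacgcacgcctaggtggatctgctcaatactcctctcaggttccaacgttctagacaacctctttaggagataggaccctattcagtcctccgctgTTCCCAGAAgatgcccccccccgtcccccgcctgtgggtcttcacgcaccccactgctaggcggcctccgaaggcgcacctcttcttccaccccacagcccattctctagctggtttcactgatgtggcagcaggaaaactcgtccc
Psmb9, chr17:34187281-34187580, minus strand: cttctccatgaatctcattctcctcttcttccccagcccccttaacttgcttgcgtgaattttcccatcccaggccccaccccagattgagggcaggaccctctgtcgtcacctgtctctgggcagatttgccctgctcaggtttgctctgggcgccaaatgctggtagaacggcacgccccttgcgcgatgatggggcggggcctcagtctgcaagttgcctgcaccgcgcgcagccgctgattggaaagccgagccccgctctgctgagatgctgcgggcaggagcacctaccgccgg
Psmb10, chr8:105938343-105938642, minus strand: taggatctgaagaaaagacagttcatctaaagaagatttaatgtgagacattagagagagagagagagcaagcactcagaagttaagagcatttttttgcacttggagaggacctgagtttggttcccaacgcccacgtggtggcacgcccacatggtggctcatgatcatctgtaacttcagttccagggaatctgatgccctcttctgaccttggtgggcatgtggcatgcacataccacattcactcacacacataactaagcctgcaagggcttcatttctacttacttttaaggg
Psme1, chr14:55578244-55578543, plus strand: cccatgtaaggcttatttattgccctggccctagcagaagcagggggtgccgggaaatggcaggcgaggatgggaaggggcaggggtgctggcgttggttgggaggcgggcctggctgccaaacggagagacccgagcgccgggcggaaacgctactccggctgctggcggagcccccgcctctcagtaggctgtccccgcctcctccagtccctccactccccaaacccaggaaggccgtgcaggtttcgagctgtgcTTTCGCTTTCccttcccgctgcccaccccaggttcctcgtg
Psmb6, chr11:70525107-70525406, plus strand: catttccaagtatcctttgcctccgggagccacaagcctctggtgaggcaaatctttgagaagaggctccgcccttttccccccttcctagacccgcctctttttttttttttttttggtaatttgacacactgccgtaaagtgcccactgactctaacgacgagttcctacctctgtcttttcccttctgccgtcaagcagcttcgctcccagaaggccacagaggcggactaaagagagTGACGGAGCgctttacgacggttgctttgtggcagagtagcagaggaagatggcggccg

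The window of Psmb8 held a match to the gamma-activated site that began at base -97 from the start. That motif occurred in 8.3% of the 32851 promoters of the table and, among the 24 constitutive genes with a window, in that of Psmd2. The window of Psme1 held the interferon-stimulated response core at base 10 after the start, which 3.4% of all promoters held, as did those of Psmb3 and Psmd4. Psmb6 held the antioxidant response core at base -9, as did Psmc6 and Psmd12 elsewhere in their windows, against 12.4% of all promoters and 0 of the 4 immunoproteasome members. Of the other members, Psmd9 held that motif at base -31 and the interferon-stimulated response core at base -159, and Psme4 held the antioxidant response core at base -7. CCAAT, a short motif common near start sites, occurred in 37.4% of all promoters, in 10 of the 24 constitutive genes and, of the immunoproteasome members, in Psmb9. The windows of Psmb9 and Psmb10 held none of the 3 motifs set in capitals. These matches are letters in a window of 300 bases and were not tested as binding sites. In the same assembly Psmb9, Tap1, Psmb8 and Tap2 lie next to one another on chromosome 17, Tap1 and Tap2 being the pump that carries peptides to class I molecules, and Psme1 and Psme2 lie on either side of Emc9 on chromosome 14.

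All 4 immunoproteasome members rose in the WT gland after neonatal DES, by 1.44-fold to 2.27-fold, against 20.7% of all genes tested. Their median difference was 0.81, against 0.08 for the 30 constitutive subunits and -0.05 for all genes tested. Psmb8 lay at 7.39, 7.40 and 7.75 in WT_vehicle and at 8.32, 8.92 and 8.84 in WT_DES. The lowest DES array was thus above the highest vehicle array, and the difference of 1.18 (SE 0.155) was the largest of any member, with a limma adjusted p of 7.27e-05.

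Psmb10, the subunit with trypsin-like activity in the immunoproteasome, lay at 7.95, 8.01 and 8.12 in WT_vehicle and at 8.78, 9.05 and 9.05 in WT_DES. The groups did not overlap, and Psmb10 rose by 0.93 (SE 0.081, 1.9-fold, limma adjusted p = 2.11e-06). Psmb9, the partner of Tap1 in the genome, lay at 6.82, 6.86 and 7.05 and at 7.22, 7.57 and 7.51 in the same groups. It rose by 0.52 (SE 0.1, limma adjusted p = 0.00125), the smallest difference of the 4, again with every DES array above every vehicle array. Psme1 lay at 8.82, 8.82 and 8.97 in WT_vehicle and at 9.44, 9.73 and 9.54 in WT_DES. It rose by 0.70 (SE 0.078, 1.62-fold, limma adjusted p = 1.96e-05), likewise without overlap. Of the WT_DES arrays, array 1 was the lowest for each of these genes.

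**Figure D1:**
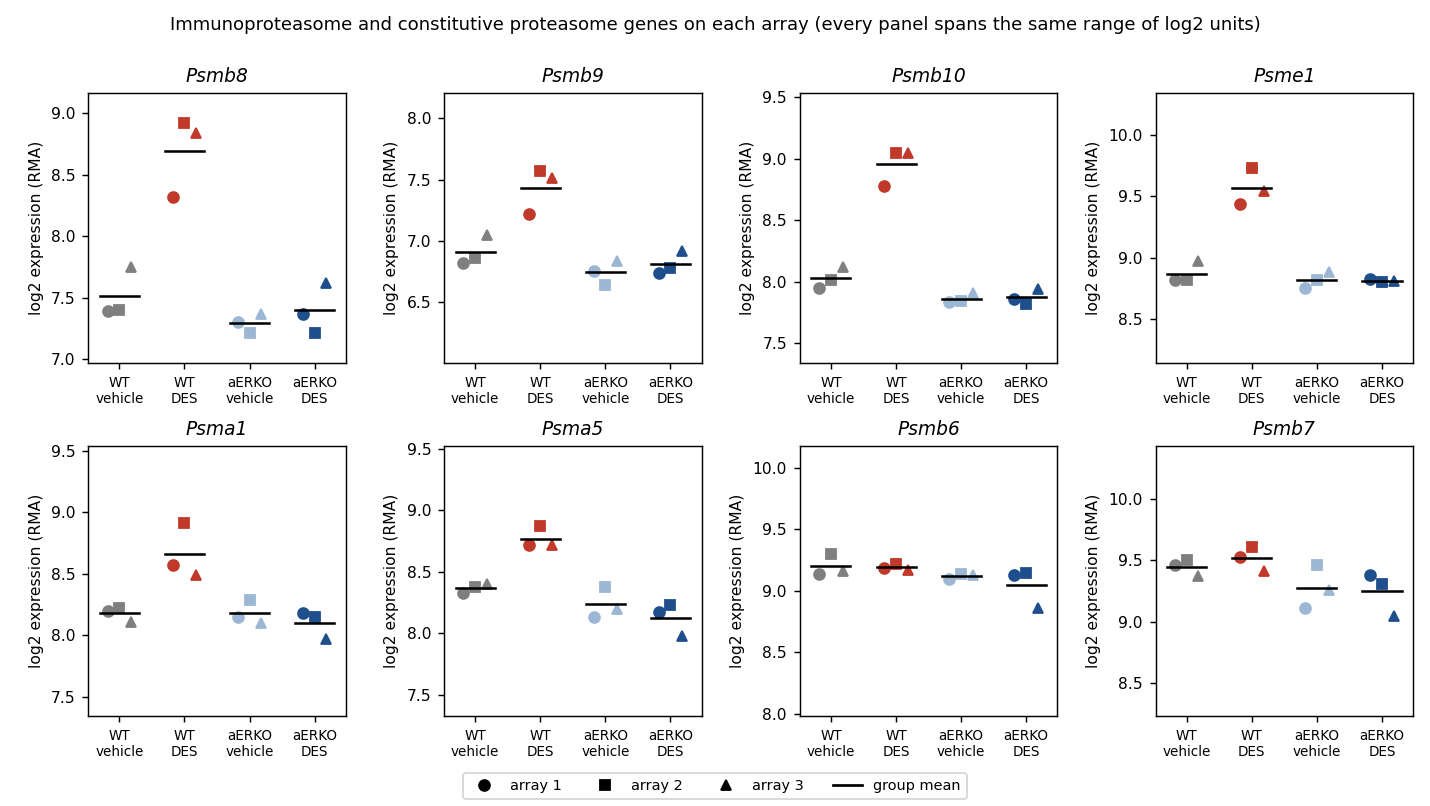
Log2 expression (y axis) of 4 immunoproteasome genes (top row) and 4 constitutive genes (bottom row) on each of the 12 arrays, by group (x axis), with symbols for the array number and a line at the group mean; the y axes start at different levels and span equal ranges. In the top row every WT_DES array lies above all other arrays, as for Psmb8 at 8.32 to 8.92, while Psmb6 and Psmb7 overlap between WT_DES and WT_vehicle.

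Of the 30 constitutive subunits, 5 rose and 0 fell after DES in WT, against 20.7% and 23.3% of all genes tested, and their differences ran from -0.09 to 0.48. The share that rose was near that of all genes. Although 25 of the 30 differences were above 0, the median of 0.08 became 0.01 with the arrays at the same median, -0.02 after quantile normalization and 0.44 with the arrays shifted to the hybridization controls. Under that last setting 25 of the 30 rose, against 41.5% of all genes tested. The 5 were Psma1, Psma5 and Psma3 of the alpha ring, Psmc6 of the base and Psmd14 of the regulatory particle. The WT_DES arrays lay above all WT_vehicle arrays for 11 of the 30, against 25.8% of all genes tested, and below them for Psmc3 and Psmc5, against 35.1%.

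In the alpha ring, which forms the gate of the core particle, 3 of 7 genes rose, against 20.7% of all genes tested, and the median difference was 0.24, against -0.05. Psma1 lay at 8.20, 8.22 and 8.11 in WT_vehicle and at 8.57, 8.91 and 8.49 in WT_DES, without overlap. It rose by 0.48 (SE 0.104, limma adjusted p = 0.00273). Psma5 lay at 8.33, 8.38 and 8.40 and at 8.72, 8.87 and 8.72, and rose by 0.40 (SE 0.085, limma adjusted p = 0.00262). Psma3 lay at 9.46, 9.52 and 9.50 and at 9.87, 10.15 and 9.59, so that array 3 of WT_DES stood just above the vehicle arrays. Its rise of 0.38 (limma adjusted p = 0.0265) was lost when any 1 of the WT_vehicle arrays or array 1 or 2 of WT_DES was left out, with adjusted p-values of 0.0555 to 0.112, and after quantile normalization (0.0597). Psma4 lay at 9.07, 9.12 and 9.04 and at 9.34, 9.49 and 9.11 and overlapped between groups, with a difference of 0.24 that did not pass the test (limma adjusted p = 0.092). Psma2 differed by 0.22, Psma7 by 0.04 and Psma6 by 0.01, and none of these passed.

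In the beta ring, 0 of 6 genes changed in either direction, against 43.9% of all genes tested, and the differences lay between -0.01 and 0.08. Psmb6, which carries the caspase-like activity, lay at 9.14, 9.30 and 9.16 in WT_vehicle and at 9.19, 9.22 and 9.17 in WT_DES. The groups overlapped, and the difference was -0.00 with a 95% interval of -0.18 to 0.17. Psmb7, which carries the trypsin-like activity, lay at 9.46, 9.50 and 9.37 and at 9.53, 9.61 and 9.41. These groups overlapped too, with a difference of 0.07 (interval -0.15 to 0.3). Psmb2, Psmb1, Psmb4 and Psmb3, which hold no catalytic site, differed by 0.08, 0.05, 0.05 and -0.01.

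Among the 6 ATPases of the base, which unfold the substrate and feed it into the core, 1 rose, against 20.7% of all genes tested. The median difference was 0.07. Psmc6 lay at 9.22, 9.27 and 9.15 in WT_vehicle and at 9.58, 9.75 and 9.30 in WT_DES, without overlap, and rose by 0.33 (SE 0.115, limma adjusted p = 0.0362). Like that of Psma3, this call was lost without any 1 of the WT_vehicle arrays or array 1 or 2 of WT_DES (adjusted p 0.0612 to 0.152) and after quantile normalization (0.0688), and it was also lost with the arrays at the same median (0.0683). Psmc1 lay at 9.12, 9.08 and 9.06 and at 9.24, 9.34 and 9.12, and Psmc4 at 8.91, 8.93 and 8.90 and at 9.06, 9.14 and 8.94. Both sat above vehicle on every DES array, with differences of 0.15 and 0.14 that did not pass the test. Psmc2, Psmc5 and Psmc3 differed by 0.00, -0.05 and -0.09, none of which passed.

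Of the 11 further subunits of the regulatory particle, 1 rose, against 20.7% of all genes tested. Psmd14, the metalloprotease that removes ubiquitin chains from the substrate, lay at 7.46, 7.58 and 7.35 in WT_vehicle and at 7.76, 7.96 and 7.80 in WT_DES. It did not overlap between groups and rose by 0.38 (SE 0.097, limma adjusted p = 0.00758). Psmd2, a large scaffold subunit, lay at 9.71, 9.74 and 9.73 and at 9.90, 9.97 and 9.83. Psmd1, the other large scaffold subunit, lay at 9.07, 9.15 and 9.0 and at 9.26, 9.38 and 9.15. Neither overlapped between groups, and neither passed, with differences of 0.17 (limma adjusted p = 0.0628) and 0.19 (0.0882). Psmd4, a receptor for ubiquitin chains, differed by 0.10, and the other 7 lay between -0.01 and 0.14.

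The chaperones, which guide assembly of the base and are absent from the finished proteasome, went different ways. Psmd10, also known as gankyrin, lay at 7.77, 7.81 and 7.88 in WT_vehicle and at 8.14, 8.28 and 7.97 in WT_DES, and rose by 0.31 (SE 0.091, limma adjusted p = 0.0169). Without array 1 of WT_vehicle or array 2 of WT_DES its adjusted p was 0.0595 or 0.0727. Psmd9 lay at 7.46, 7.57 and 7.46 and at 7.32, 7.19 and 7.33. It was the only member that fell, by 0.21 (SE 0.064, limma adjusted p = 0.0179), but the difference was 0.14 upwards with the arrays shifted to the hybridization controls, and its adjusted p was 0.0802 without array 2 of WT_vehicle and 0.0661 without array 2 of WT_DES. Psmd5 lay at 9.24, 9.31 and 9.24 and at 9.20, 9.09 and 8.89, below vehicle on every DES array, with a difference of -0.20 that did not pass (limma adjusted p = 0.0917).

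The activators beside Psme1 did not pass the test either. Psme3, which forms a nuclear activator ring and is not known as a gene of class I presentation, lay at 9.89, 9.94 and 9.76 in WT_vehicle and at 9.96, 10.05 and 9.76 in WT_DES. Its difference was 0.06, with a 95% interval of -0.13 to 0.25. Psme4, a large single-chain activator, lay at 9.22, 9.36 and 9.15 and at 9.07, 9.09 and 8.89, below vehicle on every DES array, with a difference of -0.23 (interval -0.51 to 0.06). Over all 39 members tested, 10 rose and 1 fell, against 43.9% of all genes that changed in either direction.

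**Figure D2:**
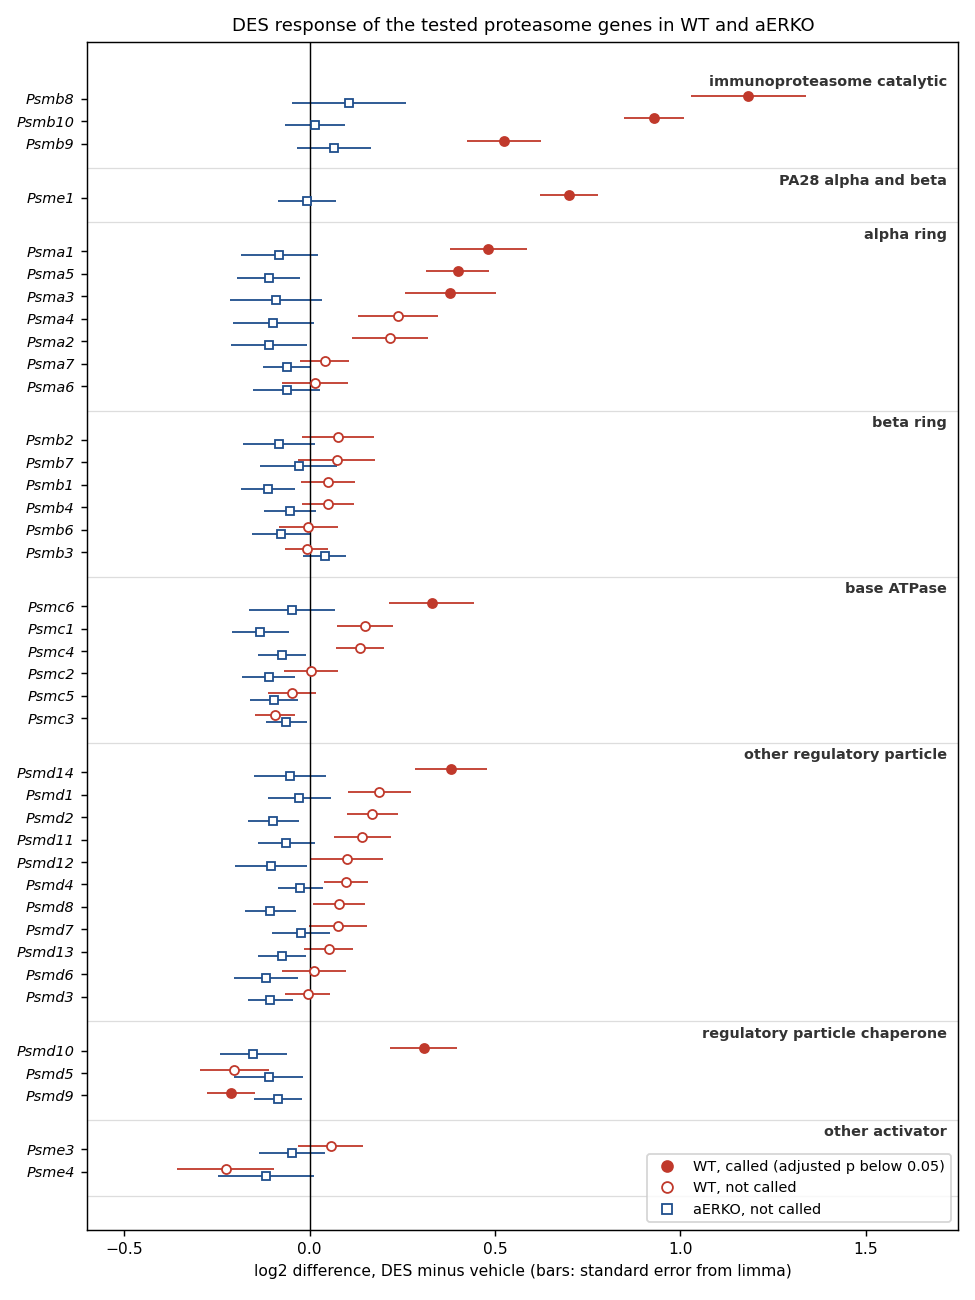
Log2 difference, DES minus vehicle (x axis), of each of the 39 tested proteasome genes (y axis, grouped by role) in WT (red circles, filled where called) and aERKO (blue squares), with bars of 1 standard error from limma. The immunoproteasome genes reach 0.52 to 1.18 in WT, the 25 constitutive subunits not called there lie between -0.09 and 0.24, and no gene is called in aERKO.

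For the catalytic pairs, the difference between the immunoproteasome subunit and the subunit it replaces was taken within each array, relative to the mean of the vehicle arrays, so that a shift of a whole array cancels. For Psmb10 and Psmb7 this difference was -0.09, -0.08 and 0.17 in WT_vehicle and 0.67, 0.85 and 1.05 in WT_DES. The change was 0.86 (SE 0.14), with an exact two-sided permutation p of 0.1, the smallest that 3 arrays against 3 can give. For Psmb9 and Psmb6 it was -0.03, -0.15 and 0.18 in WT_vehicle and 0.32, 0.64 and 0.63 in WT_DES. The change was 0.53 (SE 0.143, exact permutation p = 0.1), and neither pair overlapped between the WT groups. In aERKO the changes were 0.04 (SE 0.171, exact permutation p = 0.9) and 0.14 (SE 0.159, exact permutation p = 0.6), with overlapping groups in both pairs. Psmb8 could not be paired, since Psmb5 had no probe set of its own.

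Averaged over the class and set against the WT_vehicle mean, the immunoproteasome members stood at 0.61, 0.99 and 0.91 on the WT_DES arrays. The alpha ring stood at 0.24, 0.40 and 0.11, the base ATPases at 0.10, 0.15 and -0.01, the further regulatory subunits at 0.12, 0.20 and 0.03, and the beta ring at 0.05, 0.07 and -0.01. The 4 constitutive classes were thus lowest on array 3 of WT_DES, where the immunoproteasome members were nearly as high as on array 2. On array 3 of aERKO_DES the constitutive subunits averaged -0.25, against -0.05 and -0.07 on the others of that group. With both of these arrays left out, 14 constitutive subunits rose in WT, against 23.8% of all genes tested under that setting. The count was 10 without array 3 of WT_DES alone (21.4% of all genes) and 8 without array 3 of aERKO_DES alone (22%). It was 3 without any 1 of the WT_vehicle arrays or array 1 or 2 of WT_DES, where 16.8% to 18.6% of all genes rose.

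**Figure D3:**
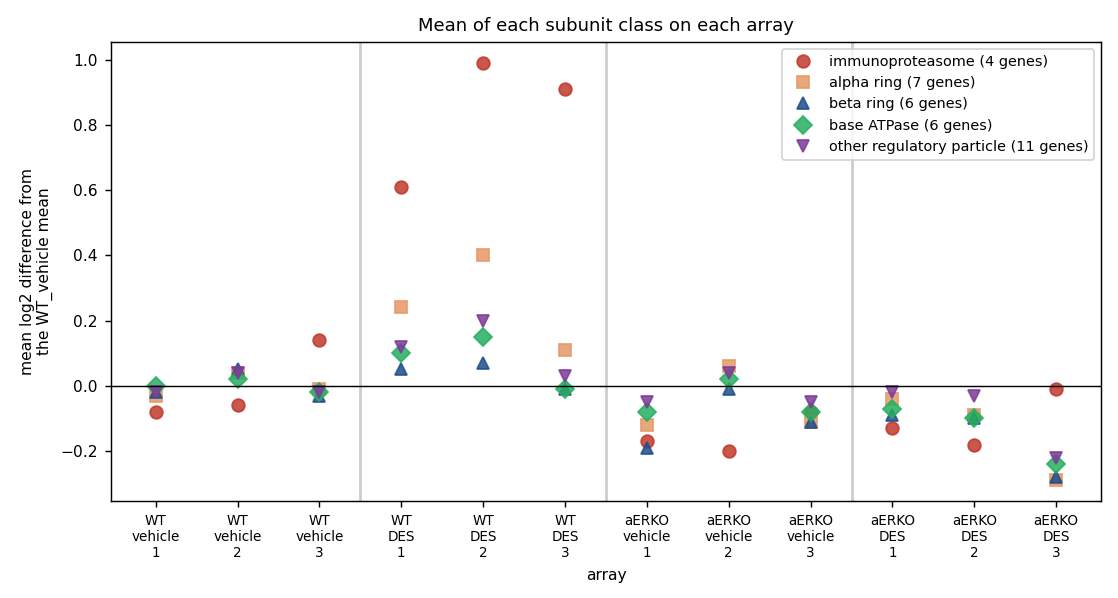
Mean log2 difference from the WT_vehicle mean (y axis) of 5 classes of subunits on each of the 12 arrays (x axis), 1 symbol per class. The immunoproteasome stands at 0.61 to 0.99 on the WT_DES arrays and between -0.20 and 0.14 on all other arrays, while the beta ring stays between -0.28 and 0.07.

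Without estrogen receptor alpha, 0 of the 39 members changed after DES, against 0% of all genes tested; at an unadjusted p below 0.05, 264 genes and 0 members differed. Psmb8 lay at 7.30, 7.21 and 7.37 in aERKO_vehicle and at 7.37, 7.21 and 7.62 in aERKO_DES. The groups overlapped, and the difference of 0.11 had a 95% interval of -0.23 to 0.44. Psmb10 lay at 7.83, 7.84 and 7.91 and at 7.86, 7.82 and 7.94, with a difference of 0.01 (interval -0.16 to 0.19). Psmb9 lay at 6.76, 6.64 and 6.84 and at 6.74, 6.78 and 6.92, with a difference of 0.07 (interval -0.15 to 0.28). Psme1 lay at 8.75, 8.82 and 8.88 and at 8.83, 8.80 and 8.81, with a difference of -0.01 (interval -0.18 to 0.16). Each of these 4 intervals ends below the difference measured in WT. The constitutive subunits had a median of -0.08, against -0.01 for all genes tested. They ranged from -0.13 to 0.04, and 29 of the 30 were below 0. Set against the WT_vehicle mean, they averaged -0.05, -0.07 and -0.25 on the aERKO_DES arrays and -0.1, 0.03 and -0.08 on the aERKO_vehicle arrays. Array 3 of aERKO_DES was thus the only one below the vehicle arrays.

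The response to DES differed between the genotypes for 8 of the 39 members, each more positive in WT, against 14.1% of all genes tested. They included all 4 immunoproteasome members, whose difference between the responses was 1.08 for Psmb8 (SE 0.219, limma adjusted p = 0.00405), 0.92 for Psmb10 (SE 0.115, 0.000109), 0.71 for Psme1 (SE 0.111, 0.000657) and 0.46 for Psmb9 (SE 0.142, 0.0353). Of the constitutive subunits 3 of 30 differed, namely Psma1 by 0.56 (limma adjusted p = 0.0158), Psma5 by 0.51 (0.00987) and Psmd14 by 0.43 (0.0385). The remaining gene was the chaperone Psmd10, at 0.46 (limma adjusted p = 0.0227). The Psmb9 call was lost when array 1 or 2 of WT_vehicle, array 2 or 3 of WT_DES, array 1 or 3 of aERKO_vehicle or array 1 or 2 of aERKO_DES was left out, with adjusted p-values of 0.0563 to 0.0859, and also with the arrays at the same median (0.0588) or with no filter (0.0525). The Psmd14 call was lost without array 1 or 3 of WT_vehicle, array 2 of WT_DES, any 1 of the aERKO_vehicle arrays or array 3 of aERKO_DES (0.0516 to 0.0945). It was also lost after quantile normalization (0.0522), with the arrays at the same median (0.0629), with no filter (0.057) and without both DES arrays numbered 3 (0.0561). The Psmd10 call was lost without array 1 or 2 of WT_vehicle, array 2 of WT_DES or array 1 of aERKO_vehicle (0.0511 to 0.0555). The calls of Psmb8, Psmb10, Psme1, Psma1 and Psma5 held when any 1 array was left out.

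Given vehicle, 0 of the 39 members differed between aERKO and WT, against 0.0249% of all genes tested. At an unadjusted p below 0.05 the counts were 864 genes and 1 member, the beta ring subunit Psmb3, at -0.16. Psmb8 and Psmb10 were lower on every aERKO_vehicle array than on any WT_vehicle array, by 0.22 and 0.17 on average, but did not pass (limma adjusted p = 1.0 for each). The constitutive subunits Psmb3, Psmc3, Psmc5 and Psmd3 were lower in the same way, and Psmd6 was higher. Thus 6 members lay lower without overlap and 1 higher, against 5.74% and 6.42% of all genes tested. The medians were -0.17 for the immunoproteasome members and -0.05 for the constitutive subunits.

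Given DES, 25 of the 39 members were lower in aERKO than in WT and 0 were higher, against 24.6% and 27.5% of all genes tested. This comparison shares the WT_DES arrays with the comparison within WT and the aERKO_DES arrays with that within aERKO, so it is no separate evidence of the changes described above. All 4 immunoproteasome members were lower, Psmb8 by 1.30, Psmb10 by 1.09, Psme1 by 0.76 and Psmb9 by 0.62, with limma adjusted p-values from 4.88e-07 to 0.000351. Of the constitutive subunits 20 of 30 were lower, with a median of -0.22, and the aERKO_DES arrays lay below all WT_DES arrays for 24, against 26.2% of all genes tested. The alpha ring had 6 of its 7 genes lower, led by Psma5 (-0.64), Psma1 (-0.56), Psma3 (-0.47), Psma4 (-0.41) and Psma2 (-0.36), followed by Psma7 (-0.19). The beta ring had 3 of 6 lower, Psmb1 (-0.28), Psmb7 (-0.27) and Psmb4 (-0.23), and the base 4 of 6, Psmc6 (-0.46), Psmc1 (-0.30), Psmc4 (-0.18) and Psmc5 (-0.17). Of the further regulatory subunits 7 of 11 were lower, Psmd14 (-0.47), Psmd2 (-0.27), Psmd8 (-0.25), Psmd1 (-0.23), Psmd11 (-0.23), Psmd4 (-0.20) and Psmd3 (-0.18). The chaperone Psmd10 was lower by 0.42.

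The count of 20 constitutive subunits rested on small differences. It was 12 without array 2 of WT_DES, 12 without array 3 of aERKO_DES and 13 without array 1 of WT_DES. It was 11 with the arrays at the same median and 7 after quantile normalization, and the median of -0.22 became -0.13 and -0.07. Psma2, Psma7, Psmb4, Psmb7, Psmc4, Psmc5, Psmd1, Psmd3 and Psmd11 each lost their call when at least 1 of the arrays was left out, with limma adjusted p-values of 0.0508 to 0.181. The 4 immunoproteasome members were lower under each of these settings.

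Signalling from interferon gamma, the inducer of the immunoproteasome, was followed through a list of 13 genes, of which 10 were tested. After DES in WT 9 of them rose, against 20.7% of all genes tested. Their median was 0.52, against -0.05 for all genes tested. Irf1, the factor that acts on immunoproteasome and class I promoters, rose by 1.58, the receptor chains Ifngr1 and Ifngr2 by 1.13 and 0.64, and the kinase Jak2 by 0.79. Socs1, a feedback inhibitor of the pathway, differed by -0.10 and did not pass (limma adjusted p = 0.386). Ifng itself was below the filter, and Nlrc5 had no probe set with a single symbol. In aERKO 0 of the 10 changed, against 0% of all genes tested. The response differed between genotypes for the 9 that rose in WT, more positive in WT, against 14.1% of all genes tested.

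Of the list of class I antigen processing, 13 of 16 genes were tested. After DES in WT 9 rose and 1 fell, against 20.7% and 23.3% of all genes tested, with a median of 0.62. The class I heavy chains H2-Q4, H2-K1 and H2-D1 rose by 1.61, 1.54 and 1.42, and Tap1, the neighbour of Psmb9 and Psmb8, by 1.08. Probe sets of class I heavy chains may share sequence with related genes, so the 3 heavy chain values are uncertain as to the gene. Tap2, the other neighbour of Psmb8, rose by only 0.22 (limma adjusted p = 0.0377). The folding chaperone Calr fell by 0.25, and B2m, the common light chain of class I molecules, differed by -0.02 (limma adjusted p = 0.86). B2m read 13.6 to 13.9 on the arrays, as high as the secretory markers. Whether a rise could be resolved at that level was not tested. In aERKO 0 of the 13 changed, against 0% of all genes tested.

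Among 9 tested genes of 10 listed for the transcription of proteasome genes, 3 rose and 2 fell in WT. Of all genes tested, 20.7% rose and 23.3% fell. Nfe2l1, the factor that restores proteasome synthesis when degradation fails, differed by 0.08 and did not pass (limma adjusted p = 0.389). Nfe2l2, the factor of the antioxidant response, rose by 1.20, and Stat3 rose by 0.96, whereas Ngly1, the enzyme that activates Nfe2l1, fell by 0.33. Nfya, a subunit of the factor that binds CCAAT, rose by 0.39, and Keap1, the inhibitor of Nfe2l2, fell by 0.21. The list's median was 0.08.

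Of the genes for assembly and for proteins that work beside the proteasome, 16 of 19 were tested. In WT 2 rose and 2 fell, against 20.7% and 23.3% of all genes tested, with a median of -0.07. Pomp, the chaperone that completes the core particle and is needed for immunoproteasome assembly, rose by 0.41 (limma adjusted p = 0.00295). Zfand5, a protein that stimulates the proteasome, rose by 0.74. Psmf1, an inhibitor of the core particle, and Ubqln1, a shuttle for ubiquitinated proteins, fell by 0.29 and 0.34. Of the list for ubiquitin supply and the p97 ATPase, 9 of 13 were tested, with a median of -0.05. Usp7 and Uba3 rose by 0.31 each and Faf1 fell by 0.29. These counts of 2 and 1 stand against the same shares of all genes.

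Markers of leukocytes, cells that express the immunoproteasome constantly, moved in the same samples. Each marker count below stands against the 20.7% of all genes tested that rose and the 23.3% that fell after DES in WT. Of 5 pan-leukocyte markers 4 rose after DES in WT, Cd53 by 3.48, Ptprc by 3.18 and Coro1a by 0.54, and Laptm5 was 2.82-fold higher, while Cd52 fell by 0.47. The mean of the list was 7.65 to 7.84 on the WT_vehicle arrays and 9.22 to 9.53 on the WT_DES arrays. It was 7.67 to 7.73 on the aERKO_vehicle arrays and 7.69 to 7.91 on the aERKO_DES arrays. All 9 macrophage and dendritic markers rose (median 2.14), as did all 6 of neutrophils (3.46), 5 of 7 of T and NK cells (1.00) and all 5 of B and plasma cells (1.54). S100a8, Retnlg, Il7r, Ms4a1 and Jchain were above the array's median only on WT_DES arrays, and Flt3 needed those arrays to pass the filter. Being high after DES in WT was thus the condition for testing these genes, so their part of the counts was fixed in advance. Of 8 secretory epithelial markers 5 fell and 0 rose (median -0.25), and 3 of 4 luminal markers rose and 1 fell. All 4 fibroblast markers rose (median 1.73), and 4 of 5 smooth muscle markers fell (median -0.43). The part of these markers in the results for the proteasome genes was not tested, and in whole tissue more cells of a type and more RNA per cell cannot be told apart. Among markers of the tissues of the excluded members, 3 of 4 testis germ cell genes were below the filter, and all 4 of thymic cortical epithelium passed it, with 1 higher and 1 lower after DES in WT.

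The scale of the arrays set the level of the constitutive subunits in WT. The immunoproteasome median stood above the constitutive median under each of 4 scalings. A shift of whole arrays moves both classes alike and cannot change their order, so only quantile normalization could have changed it. With the arrays shifted to the hybridization controls it was 1.17 against 0.44, and 25 constitutive subunits rose. After quantile normalization 3 constitutive subunits rose and 2 fell. Psmb8, Psmb9, Psmb10, Psme1, Psma1, Psma5 and Psmd14 rose in WT under all 4 scalings.

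**Figure D4:**
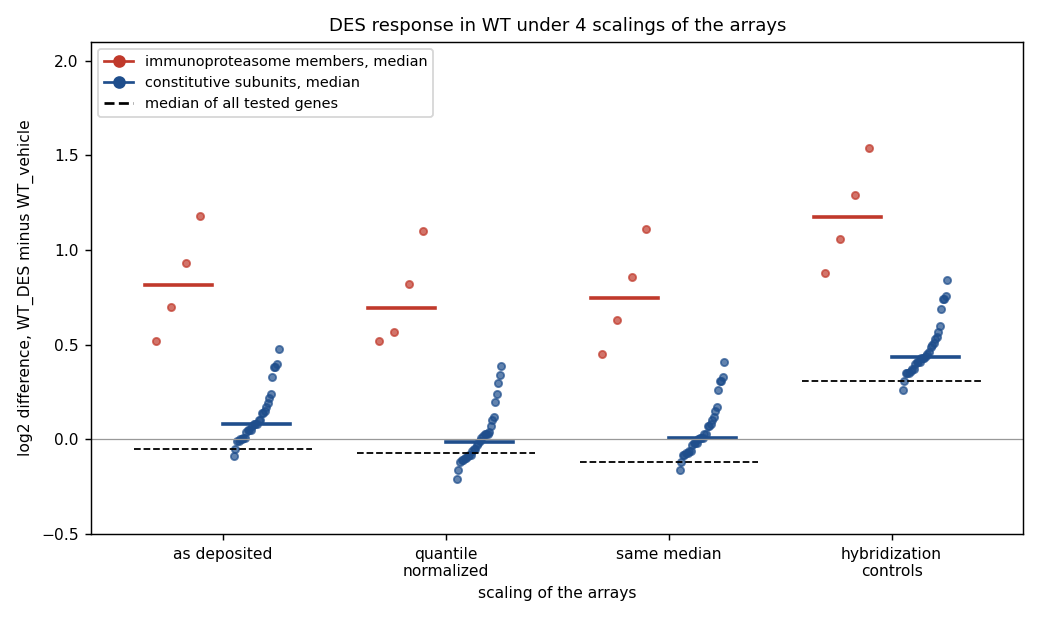
Log2 difference, WT_DES minus WT_vehicle (y axis), of the 4 immunoproteasome members (red points) and 30 constitutive subunits (blue points) under 4 scalings of the arrays (x axis), with bars at the class medians and a dashed line at the median of all tested genes. The immunoproteasome median lies above the constitutive one in each, an order that shifts of whole arrays cannot change. The constitutive median moves from -0.02 after quantile normalization to 0.44 with the hybridization controls.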

How the data were processed

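RNA from 12 seminal vesicle samples, 3 in each of 4 groups named by the sample titles, was measured on 1-colour Affymetrix arrays from 300 ng of total RNA, per the labels' protocols. The authors deposited log2 values per probe set computed by RMA (Affymetrix Expression Console), as the submitters' processing notes list; RMA corrects background, equalizes the distributions of the arrays and summarizes each probe set, so values show change relative to the other genes. The genome build of the probe sets is not given in the sources used here. The platform annotation gave 1 symbol for 30604 of 72688 probe sets, several for 2146 and none for 39938, of which 186 were controls. Of the symbols, 1135 were updated through the GRCm38.p6 gene table. A gene with several probe sets (429 of 30063) took the one with the highest mean.

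Group means were fitted to the 12 arrays at once with limma 3.58.1 in R 4.3.3 (lmFit, eBayes; 8 residual and 4.33 prior degrees of freedom), and p-values were adjusted by Benjamini-Hochberg over 20102 genes in each of 5 comparisons; 9961 genes failed the filter. Standard errors and 95% intervals come from this fit. The fit was tested on simulated data. The number of arrays limits the precision. All members were accounted for: the immunoproteasome members, Psmb6 and Psmb7 with every array's value, the others by class, with values for called members. Other genes came from fixed lists, up to 4 called members of each by size of difference. Keap1, Calr and Cd52, which fell, Tap2, which rose, and Socs1, B2m and Nfe2l1, which were not called, were added after their values were seen. The rule for the members names symbols and no values, but the members and lists were chosen with earlier results of these data known. The catalytic pair of Psmb8 and Psmb5 and the planned protein comparison were not run, since Psmb5 had no probe set of its own and no protein sequences were used here. Alternatives to the filter, the moderation, the samples fitted, array weights, the scaling, the block and each array in turn are given in the closing section.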

Additional observations from a re-analysis of the deposited data

Results flagged for a closer look

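The response to DES differed between WT and aERKO for 8 of the 39 members tested, by limma's test of the difference between the responses. All were more positive in WT. Of all genes tested, 14.1% were more positive in WT and 23.3% differed in either direction. This difference, WT minus aERKO on the log2 scale, was 1.08 for Psmb8, 0.92 for Psmb10, 0.71 for Psme1 and 0.46 for Psmb9 among the immunoproteasome members. It was 0.56 for Psma1 and 0.51 for Psma5 of the alpha ring, 0.43 for the regulatory subunit Psmd14 and 0.46 for the chaperone Psmd10. The limma adjusted p-values ran from 0.000109 for Psmb10 to 0.0385 for Psmd14. Among the alternatives described below, the call held in 12 of 22 for Psmb9, 12 of 23 for Psmd14 and 19 of 23 for Psmd10.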

How the results depend on the processing

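Each result was recomputed under 23 alternatives, 12 of them leaving out 1 array, and with a 1.5-fold minimum. Psmb8, Psmb10, Psme1, Psma1, Psma5 and Psmd14 rose in WT under all 23, and Psmb9 under the 22 that tested it. Psmd9 reversed, from -0.21 to 0.14 (adjusted p 0.456), with arrays shifted to the hybridization controls. Leaving out 1 array at a time gave 3 to 10 constitutive subunits higher in WT, 7 to 16 members called in WT, 2 to 9 constitutive subunits and 5 to 13 members with a genotype difference in response, 12 to 21 constitutive subunits lower in aERKO given DES and a constitutive median after DES in aERKO of -0.12 to -0.01. In the order constitutive subunits higher in WT, members called in WT, constitutive subunits and members with a difference in response, array weights gave 13, 19, 9 and 14 (constitutive median in aERKO 0.00), leaving out both DES arrays numbered 3 gave 14, 20, 5 and 10 (median -0.01), and the fold minimum gave 0, 3, 0 and 3. Given DES, the fold minimum left 1 constitutive subunit and 5 members called, and fitting only the groups compared left 10 and 15. Quantile normalization gave 3 constitutive subunits higher and 2 lower in WT (median -0.02), a median difference in response of 0.02, and given DES 7 constitutive subunits (median -0.07) and 14 members. Arrays at the same median gave 1 constitutive subunit lower in WT (median 0.01), a median difference in response of 0.08, and given DES 11 (median -0.13). Arrays shifted to the hybridization controls gave 25 constitutive subunits and 31 members in WT, with immunoproteasome and constitutive medians of 1.17 and 0.44 in WT, 1.04 and 0.39 for the difference in response, -1.14 and -0.44 given DES, and a constitutive median of 0.05 in aERKO. The stricter filter, which drops Psmb9, gave an immunoproteasome median of -1.09 given DES. Same-numbered arrays deviated together with correlations of -0.355 to 0.52, so the numbers were not taken to pair the samples; the replicate block gave 9 constitutive subunits higher in WT, and 9 constitutive subunits and 14 members with a difference in response. Except where a setting changes the samples or genes by construction, the cause was not tested. The background controls averaged 5.2, so values near it are poorly resolved.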
